A study of Mus musculus with 2 samples.

Results

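The interleukin-6 family genes described here are the ligand genes *Lif*, *Il11*, *Clcf1* and *Ctf1*, the receptor genes *Lifr*, *Osmr*, *Il11ra1* and *Il6st*, the transcription factor gene *Stat3* and the inhibitor gene *Socs3*. They were chosen by name, as 10 genes of 1 pathway and with earlier results of these data known, and all 10 had a listed tag in at least 1 library, among 14450 genes with a tag. They were measured by digital gene expression (DGE) tag profiling in 2 mouse cell lines of male germ cell origin, with 1 library each. GC-1spg comes from type B spermatogonia of a mouse aged 10 days, transformed with the plasmid pSV3-neo, and stands for a stage from there up to the primary spermatocyte. GC-2spd (ts) comes from spermatocytes of a mouse aged 6 weeks, transformed with the SV40 large T antigen, no longer differentiates and is arrested before meiosis. Both lines were grown in DMEM with FBS at 10% and sodium bicarbonate at 1.5 g/L, and no cytokine or other treatment is given for either. Each is a transformed line, and the age of the source animal differs together with the cell stage, so that they cannot be told apart. The agents of transformation are named differently for the 2 lines. How far they differ was not measured, and any such difference cannot be told apart from the stage either.

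In DGE, *Nla*III cuts the cDNA at CATG, and *Mme*I releases CATG with the 17 bases that follow. A transcript thus gives 1 tag, mostly from its site nearest the 3′ end, and levels of different genes can be compared as TPM, copies scaled to 1000000 clean tags, with no correction for length. The libraries held 5072149 clean tags for GC-1spg and 4726808 for GC-2spd (ts), so that 1 copy is worth 0.197 and 0.212 TPM. No tag is listed with fewer than 2 copies. With 1 library per line, no difference has a replicate check, every test compares the 2 libraries and not the cell stages, and the intervals hold counting error alone. Even for that they may be too narrow, because repeated PCR copies of a molecule look alike and were each counted. All ratios are GC-2spd (ts) over GC-1spg. Of 15 germ cell marker genes, 14 had no listed tag in either library, *Ddx4*, *Dazl*, *Sycp3*, *Stra8* and *Kit* among them, and the remaining one, *Tdrd1*, had 4 copies in GC-2spd (ts). Fewer cells of a type and less RNA per cell cannot be told apart in such bulk samples.

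Cytokines of this family act through receptor complexes that share gp130, the product of *Il6st*. Leukemia inhibitory factor (LIF) joins gp130 to the LIF receptor, encoded by *Lifr*, and oncostatin M joins gp130 to the receptor encoded by *Osmr*. Interleukin-11 binds the chain encoded by *Il11ra1* before gp130 is engaged. JAK kinases bound to gp130 then phosphorylate STAT3, which enters the nucleus and switches on genes that include *Socs3*, whose product binds gp130 and shuts the signal off. In the testis, LIF and related factors are known as survival factors for early germ cells, and in cultured mouse stem cells LIF is the classical factor for self-renewal.

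The tags that carry the counts are shown first, since each gene was measured through a few of them. Given below is the most abundant tag of each gene with at least 20 copies over both libraries, and both main tags of *Il6st*, as listed in the deposited libraries, with the *Nla*III site in capitals.
Clcf1: CATGactctaagtttgttgta
Ctf1: CATGgaggtgacaatttttct
Lifr: CATGgaaaaaataaatatatt
Osmr: CATGgctacaacctaagctag
Il11ra1: CATGtgtgtacagatgattgg
Il6st, downstream: CATGtttatgttgaccctgcc
Il6st, upstream: CATGttttagaataatctgga
Stat3: CATGgctagattcagtgactc
Socs3: CATGcaattacctggaactgg

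All of these lie in 3′ UTRs in the transcripts of GENCODE release M21, on the genome GRCm38. The *Clcf1* tag is on the plus strand at chr19:4223380-4223400 in exon 3 of 3, and the *Ctf1* tag on the plus strand at chr7:127717911-127717931, also in exon 3 of 3. The *Lifr* tag, on the plus strand at chr15:7197451-7197471 in exon 19 of 19, ends 18 bases before the end of the longest transcript. The *Osmr* tag is on the minus strand of the same chromosome at chr15:6813795-6813815, in exon 18 of 18. The *Il11ra1* tag is on the plus strand at chr4:41769378-41769398 in exon 13 of 13. For *Il6st*, on the plus strand, the downstream tag is at chr13:112509275-112509295 and the upstream tag at chr13:112506737-112506757, both in exon 17 of 17. The *Stat3* tag is on the minus strand at chr11:100887399-100887419 in exon 24 of 24, and the *Socs3* tag on the minus strand of that chromosome at chr11:117966390-117966410 in exon 2 of 2. Each tag matched its transcript with 0 mismatches. *Clcf1* spans chr19:4214238-4223490 on the plus strand, *Ctf1* chr7:127712736-127718192 on the plus strand and *Il11* chr7:4772373-4782859 on the minus strand. *Lif* spans chr11:4257557-4272514 on the plus strand, and *Stat3* (chr11:100885098-100939540) and *Socs3* (chr11:117966079-117970047) lie on the minus strand of the same chromosome. *Il11ra1* spans chr4:41699989-41769474 and *Il6st* chr13:112464070-112510086, both on the plus strand.

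Of the 10 genes, *Ctf1*, *Lifr*, *Osmr*, *Stat3* and *Socs3*, 5 in all, were called lower in GC-2spd (ts), 2 were called higher (*Il11ra1* and *Il6st*), and 3 were not called (*Lif*, *Il11* and *Clcf1*). A gene was called at a false discovery rate (FDR) of at most 0.001 in the two-sided Audic-Claverie test, adjusted over all 14450 genes, with an absolute log2 ratio of at least 1. Of all genes, 7.84% were called lower and 11.7% higher, 19.5% in either direction. Among genes with at least 10 tags over both libraries these shares were 10.4%, 15.0% and 25.4%. The median log2 ratio of the 10 genes, with 0.5 tags added to both counts, was -1.34, against 0.13 for all genes tested, and it was -1.05 with *Lif* placed at its limit. The 7 calls held under each other scaling, under exact matching and under each other way of assigning tags that was tried, and all were lost when a biological coefficient of variation (BCV) of 0.4 between cultures was assumed in edgeR's exact test, which called 0 of the 10 genes. With an assumed BCV of 0.2, *Lifr*, *Osmr* and *Socs3* were called.

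**Figure D1:**
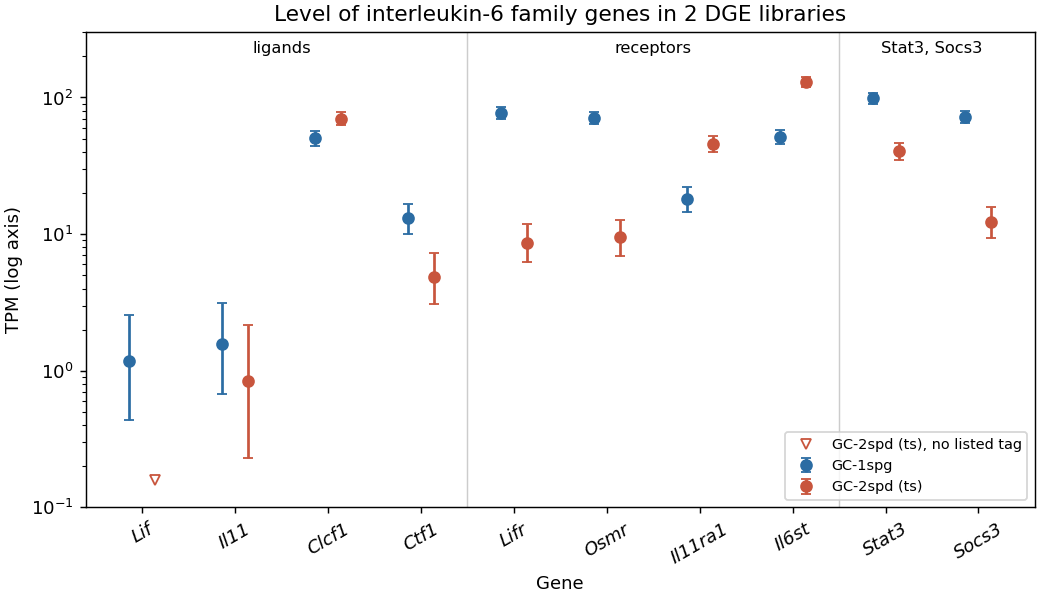
Level of the 10 genes in TPM on a log axis, GC-1spg in blue and GC-2spd (ts) in red, with 1 library per line and exact 95% Poisson intervals for counting error. *Lifr*, *Osmr*, *Stat3* and *Socs3* lie between 70.6 and 98.6 TPM in GC-1spg and between 8.67 and 40.4 TPM in GC-2spd (ts), while *Il6st* is at 51.5 and 129.7 TPM. *Lif*, unlisted in GC-2spd (ts), is an open triangle placed at the foot of the axis.

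Among the receptor genes, the signalling partners *Lifr* and *Osmr* differed in one direction and *Il6st* with *Il11ra1* in the other. *Lifr*, which encodes the signalling partner of gp130 for LIF and cardiotrophin-1, had 390 tags (76.9 TPM) in GC-1spg against 41 (8.67 TPM) in GC-2spd (ts). *Osmr*, which encodes the oncostatin M partner of gp130, had 358 and 45 tags, or 70.6 and 9.52 TPM. Both were lower in GC-2spd (ts) than in GC-1spg, and for each gene the exact 95% intervals of the levels in the 2 libraries did not overlap. In GC-2spd (ts) *Lifr* was 8.86-fold lower, on the log2 scale -3.15 with an exact 95% interval of -3.65 to -2.68 (FDR 7.56e-66 in the Audic-Claverie test). *Osmr* was 7.41-fold lower, or -2.89 (-3.37 to -2.44, FDR 1.28e-55). The intervals of these ratios overlap, so the libraries give no order between them.

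*Il6st*, the gene for gp130, had 261 tags (51.5 TPM) in GC-1spg against 613 (129.7 TPM) in GC-2spd (ts). *Il11ra1*, which encodes the chain that binds interleukin-11, had 91 and 217 tags, or 17.9 and 45.9 TPM. Both genes were lower in GC-1spg, and again the intervals of the 2 libraries did not overlap for either gene. The log2 ratio was 1.33 for *Il6st* (1.12 to 1.55, FDR 1.15e-37 in the Audic-Claverie test) and 1.36 for *Il11ra1* (0.996 to 1.72, FDR 4.08e-14), that is 2.52-fold and 2.56-fold higher in GC-2spd (ts). The interval of *Il11ra1* just includes the threshold of 1. *Il11ra1* has near copies in the mouse genome, but its only listed sense tag belonged to *Il11ra1* alone, the copy *Il11ra2* had no listed tag, and 0 copies of sense tags shared by the copies were listed.

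The balance between the receptor chains was therefore unlike in the 2 libraries. GC-1spg had 0.669 *Il6st* tags per *Lifr* tag (exact 95% interval 0.570 to 0.785), where GC-2spd (ts) had 15.0 (10.9 to 21.05). For *Osmr* the same ratio was 0.729 in GC-1spg (0.619 to 0.857) and 13.6 in GC-2spd (ts) (10.1 to 18.9). gp130 transcripts were thus the minority against either partner in GC-1spg and the large majority in GC-2spd (ts). The ratio of *Il6st* to *Il11ra1* was 2.87 in GC-1spg (2.25 to 3.68) and 2.82 in GC-2spd (ts) (2.42 to 3.31), and that of *Lifr* to *Osmr* was 1.09 (0.941 to 1.26) and 0.911 (0.582 to 1.42). These pairs kept overlapping intervals. Summed over the 4 receptor genes, GC-1spg was at 216.9 TPM against 193.8 TPM for GC-2spd (ts), or -0.16 on the log2 scale (-0.29 to -0.035), so that the sum differed far less than its parts. Under TMM, the trimmed mean of M values of edgeR, every log2 ratio shifts by -0.17.

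**Figure D2:**
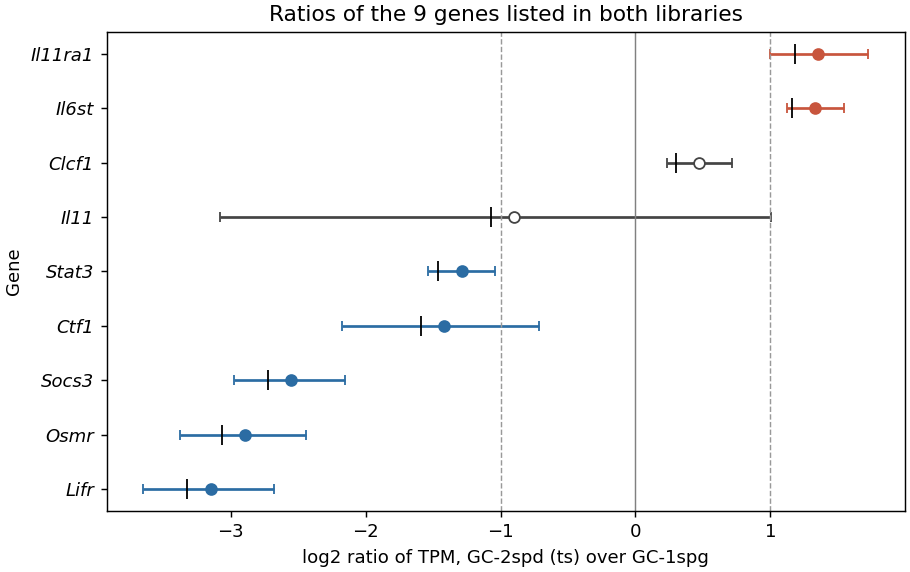
log2 ratio of TPM, GC-2spd (ts) over GC-1spg, for the 9 genes listed in both libraries, with exact 95% intervals for counting error and dashed lines at the thresholds of -1 and 1. Filled points were called and open points were not, and each upright tick is the ratio under TMM. *Lifr*, at -3.15, and *Il11ra1*, at 1.36, are the ends of the range.

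*Osmr* and *Lifr* also share their place in the genome. *Osmr* spans chr15:6813577-6874969 on the minus strand and *Lifr* chr15:7090614-7197489 on the plus strand, 215644 bases apart, with 0 protein-coding genes between them. Of the 9 other protein-coding genes within 1000000 bases of the pair, 7 were listed, 2 were called lower and 0 higher, beside 7.84% lower among all genes and 10.4% among those with at least 10 tags. *Dab2*, which encodes an endocytic adaptor, had 2869 tags against 884 in GC-2spd (ts), or -1.60 on the log2 scale, and *Rictor*, which encodes a subunit of mTOR complex 2, had 85 against 38, or -1.06. The other listed neighbours were not called, and *Egflam*, the next gene beyond *Lifr*, had no listed tag.

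Of the ligand genes, *Clcf1* was the most abundant in both libraries. *Clcf1*, which encodes a cytokine that signals through the ciliary neurotrophic factor receptor, had 255 tags (50.3 TPM) in GC-1spg against 330 (69.8 TPM) in GC-2spd (ts). It was slightly higher in GC-2spd (ts), at 0.47 on the log2 scale with an exact 95% interval of 0.23 to 0.72, and did not pass the threshold of 1. *Ctf1*, the gene for cardiotrophin-1, had 66 and 23 tags, or 13.0 and 4.87 TPM. It was 2.67-fold lower in GC-2spd (ts), or -1.42 on the log2 scale (-2.17 to -0.72, FDR 6.54e-05 in the Audic-Claverie test). That interval includes the threshold of -1.

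*Lif* and *Il11* were near the limit of detection. *Lif* had 6 tags in GC-1spg, or 1.18 TPM, and no listed tag in GC-2spd (ts). These came from 2 distinct tags in the 3′ UTR of exon 4 of 4, one with 4 copies and one with 2, and no fold is given, since single copies were removed and up to 6.30 copies in GC-2spd (ts) are compatible with that (one-sided 95% Poisson limit for 1 unlisted copy of each tag). *Il11* had 8 and 4 tags, or 1.58 and 0.846 TPM, all from 1 tag, and its log2 ratio was -0.90, with an interval (-3.08 to 1.002) around 0. No difference was detectable at this depth for either gene. Summed, the 4 ligand genes were at 66.0 TPM in GC-1spg against 75.5 TPM in GC-2spd (ts), or 0.19 on the log2 scale, with 0 inside the interval (-0.026 to 0.41).

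*Stat3*, the gene for the transcription factor that gp130 activates, had 500 tags (98.6 TPM) in GC-1spg against 191 (40.4 TPM) in GC-2spd (ts). *Socs3*, the gene for the inhibitor that STAT3 induces, had 365 and 58 tags, or 72.0 and 12.3 TPM. Both were lower in GC-2spd (ts) than in GC-1spg, with intervals that did not overlap. *Stat3* was 2.44-fold lower, or -1.29 on the log2 scale (-1.53 to -1.04, FDR 3.83e-27 in the Audic-Claverie test), and *Socs3* was 5.86-fold lower, or -2.55 (-2.98 to -2.15, FDR 1.23e-49). By the counted tags the inhibitor thus differed more than the factor, with 1.37 *Stat3* tags per *Socs3* tag in GC-1spg (1.19 to 1.57) and 3.29 in GC-2spd (ts) (2.44 to 4.50). These ratios leave out 8 *Stat3* tags shared with other genes, with 1245 and 1252 copies, while *Socs3* shared no listed sense tag.

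A search of the RefSeq promoters, 250 bases before to 50 after the gene start on GRCm38.p6, for the STAT core motif TTCNNNGAA, which reads the same on both strands, found it in 1 of 12 promoters of 9 of these genes and in 8.30% of all 32851 promoters. The match is in *Socs3*, where it begins 154 bases before the start that RefSeq gives. The stretch printed below, the motif in capitals with its flanking bases, lies at chr11:117969504-117969528 on the minus strand. It is shown because *Socs3* is the textbook STAT3 target of the pathway.
Socs3 promoter: aaccagccTTCTTAGAAgggagggg
That start is not the one of the GENCODE span given above, which begins further upstream and contains the match. A match is a description of these letters only.

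The order of the levels was unlike in the 2 libraries. In GC-1spg the order from the top was *Stat3*, *Lifr*, *Socs3*, *Osmr*, *Il6st*, *Clcf1*, *Il11ra1*, *Ctf1*, *Il11* and *Lif*, and neighbours within *Lifr*, *Socs3* and *Osmr*, within *Il6st* and *Clcf1*, within *Il11ra1* and *Ctf1*, and within *Il11* and *Lif* had overlapping 95% intervals. In GC-2spd (ts) it was *Il6st*, *Clcf1*, *Il11ra1*, *Stat3*, *Socs3*, *Osmr*, *Lifr*, *Ctf1*, *Il11* and *Lif*, with overlap between *Il11ra1* and *Stat3*, along *Socs3*, *Osmr*, *Lifr* and *Ctf1*, and between *Il11* and *Lif*. By the counted tags, which leave out those shared with other genes, *Lifr* ranked above 89.1% of the genes tested in GC-1spg but above 48.4% in GC-2spd (ts). *Il6st* ranked above 83.6% and 93.4%.

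Most genes were counted at 1 main site, and *Il6st* at several. The main tag held 98.1% of the *Socs3* copies in GC-1spg against 96.6% in GC-2spd (ts), 96.9% and 96.1% for *Clcf1*, and 92.2% and 100% for *Osmr*. For *Lifr*, 91.5% of the GC-1spg copies (exact 95% interval 88.3 to 94.1) and 87.8% of those in GC-2spd (ts) (73.8 to 95.9) lay beyond the end of a shorter annotated coding transcript, in the 3′ UTR of the longest one. The counts of *Lifr* thus came mostly from the far end of the long form in both libraries. For *Il6st*, the part of the 3′ UTR beyond the end of a shorter coding transcript held 67.0% (61.0 to 72.7) and 71.0% (67.2 to 74.5) of the copies.

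Some sense tags were left out of the counts because they fit other genes as well. *Stat3* shared 8 tags with other genes, listed with 1245 copies in GC-1spg against 1252 in GC-2spd (ts), *Lifr* shared 19, with 217 and 242 copies, and *Il11* shared 3, with 1430 and 1516 copies. How many of these copies came from the genes themselves cannot be told apart. With each shared copy divided equally among its genes, the log2 ratio became -1.25 for *Stat3*, -2.68 for *Lifr* and -0.22 for *Il11*, and no call changed. *Lif*, *Ctf1*, *Osmr*, *Il11ra1*, *Il6st* and *Socs3* shared no listed sense tag.

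Of 14 tags with at least 20 copies over both libraries, from genes with more than 1 listed tag (which leaves out *Il11ra1*), 3 differed in their share of the gene's copies at an FDR of at most 0.05 (two-sided Fisher's exact test, adjusted over the 14 tags). The downstream *Il6st* tag held 34.9% of the *Il6st* copies in GC-1spg (91 of 261) and 45.2% in GC-2spd (ts) (277 of 613), with an FDR of 0.0362. A further *Il6st* tag in the same exon held 10.3% and 5.22% of the copies, also with an FDR of 0.0362. The upstream *Il6st* tag, which the shorter 3′ UTR also has, held 30.7% and 27.9%, which did not pass. Both *Il6st* tags named above were thus the main sites of the gene in each library, and the downstream one took a larger share in GC-2spd (ts). The main *Stat3* tag held 77.2% of the *Stat3* copies in GC-1spg (386 of 500) and 63.9% in GC-2spd (ts) (122 of 191), with an FDR of 0.00714. A *Stat3* tag 3593 bases from the end of the longest transcript held 6.60% and 11.5%, one at 3243 bases held 5.0% and 8.90%, and one in the coding sequence of exon 16 held 4.80% and 6.81%. Those 3 shares were higher in GC-2spd (ts) and did not pass the FDR. Each of the 5 *Il6st* tags with at least 20 copies had a higher TPM in GC-2spd (ts).

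**Figure D3:**
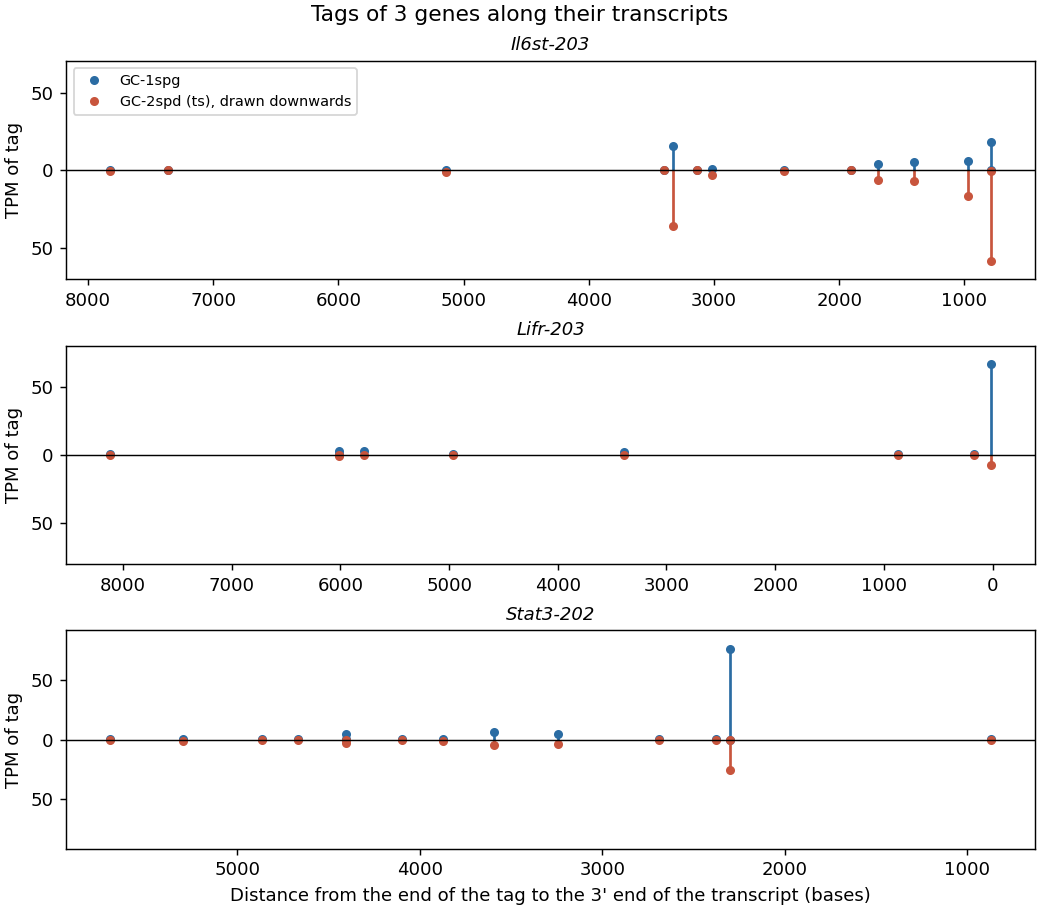
TPM of each tag of *Il6st*, *Lifr* and *Stat3* against its distance in bases from the 3′ end of the named transcript, with GC-1spg drawn upwards in blue and GC-2spd (ts) downwards in red. *Lifr* is counted mostly 18 bases from the end of its transcript, *Il6st* at 791 bases and at 3329 bases from the end, and *Stat3* mainly at 2301 bases from the end of the long form.

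The other ligands and receptors of the family were low or unlisted. *Osm*, *Cntf*, *Ctf2*, *Il27* and *Ebi3* had no listed tag in either library. *Il6*, the founding cytokine, had 0 and 3 tags, and was not called. The receptor genes *Cntfr*, for the ciliary neurotrophic factor receptor, and *Il11ra2* had no listed tag, and *Il27ra* had 0 and 11 tags and was not called. *Il6ra*, which encodes the chain that binds interleukin-6, had 19 tags (3.75 TPM) in GC-1spg against 69 (14.6 TPM) in GC-2spd (ts), or 1.96 on the log2 scale (1.21 to 2.78), and was called higher, as *Il6st* and *Il11ra1* were. It was not among the calls when only the CATG site nearest the 3′ end was counted.

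Of 10 genes for JAK kinases and other STAT factors, 9 were listed, and 3 were called higher and 0 lower in the GC-2spd (ts) library, beside the 11.7% higher and 7.84% lower of all genes. *Jak1*, the kinase gene most tied to gp130, had 181 tags against 426, or 1.34 on the log2 scale (1.08 to 1.60). *Stat2*, with 60 and 133 tags, and *Stat5b*, with 36 and 74, were the other calls, and *Stat5b* was no longer called under TMM. *Stat3* was the only STAT gene called lower. *Jak2*, named after its values were seen, had 941 and 598 tags, at -0.55 on the log2 scale, and was not called.

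Of 14 genes for other inhibitors of the pathway, 13 were listed, 3 were called higher and 0 lower, where 11.7% of all genes and 15.0% of those with at least 10 tags were called higher. *Socs5* had 92 and 230 tags, *Socs6* had 73 and 169, and *Pias2*, which encodes an inhibitor of STAT factors, had 58 and 196, with log2 ratios of 1.42, 1.31 and 1.86. *Socs5* was not called when only the CATG site nearest the 3′ end was counted. *Socs3* was thus the only one of the 7 listed *Socs* genes called lower, while *Cish*, a target of STAT5, had no listed tag. Of 7 genes for the SHP2 phosphatase and the adaptors that tie gp130 to Ras, *Gab2*, with 8 and 52 tags, and *Sos2*, with 22 and 61, were called higher and 0 were called lower, and *Sos2* lost its call when shared tags were divided equally.

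STAT3 target genes leaned the same way as *Stat3* and *Socs3* where they were called. The list was written from general knowledge but with earlier results of these data known, so that it is not independent of them. Of 19 such genes, all listed, 5 were called lower and 0 higher, against 7.84% and 11.7% of all genes. Among genes with at least 10 tags these shares were 10.4% and 15.0%. *Saa3*, which encodes an acute phase protein, had 3446 tags in GC-1spg, or 679.4 TPM, and no listed tag in the other library, at least 126-fold less when every tag is allowed 1 copy below the listing limit. *Bcl3*, the gene for a nuclear cofactor of NF-kB, had 341 tags against 50, or -2.67 on the log2 scale (-3.13 to -2.24). *Cebpd* had 370 and 57 tags and *Cebpb* 637 and 165, both genes for transcription factors of the acute phase response, with log2 ratios of -2.60 (-3.03 to -2.19) and -1.85 (-2.10 to -1.60). *Il4ra*, which encodes the interleukin-4 receptor chain, had 347 tags against 136, or -1.25.

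The other 14 targets were not called, and *Mcl1* and *Timp1*, named after their values were seen, had log2 ratios of 0.91 and 0.88, in the other direction. The median log2 ratio of the 19 genes, with 0.5 tags added to both counts, was -0.74, and -0.31 with the genes unlisted in 1 library at their limits. *Cebpd* was not among the calls when only the CATG site nearest the 3′ end was counted, where *Pim1* was called lower and *Mcl1* higher. Genes of the acute phase and of NF-kB signalling also answer to other signals, and these were not measured apart.

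**Figure D4:**
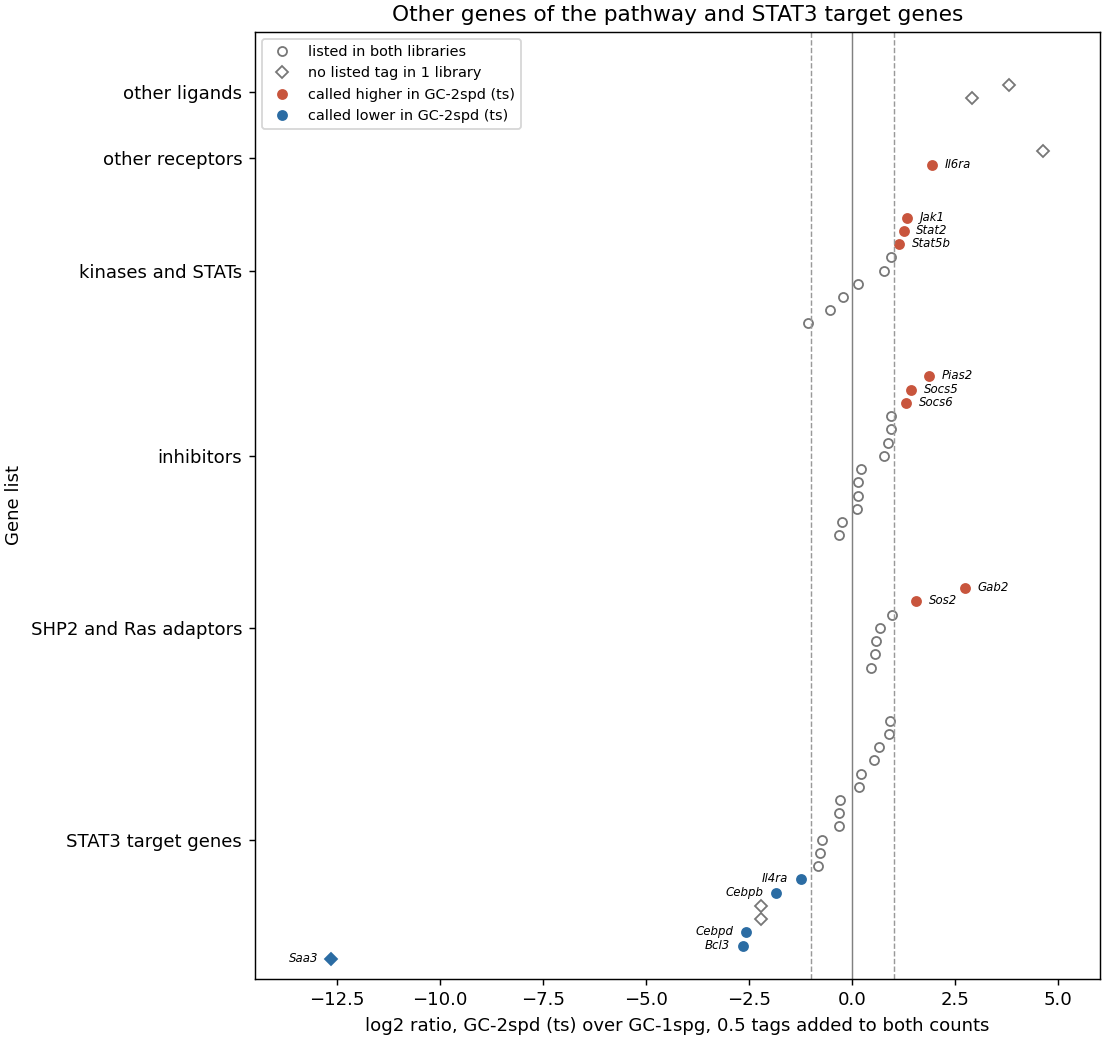
log2 ratio of GC-2spd (ts) over GC-1spg, with 0.5 tags added to both counts, for the 52 listed genes of 6 lists, with dashed lines at -1 and 1. Filled symbols were called by the Audic-Claverie test (red higher, blue lower), open symbols were not, and diamonds had no listed tag in 1 library, so that their place depends on the added 0.5 tags. The 9 genes called higher are receptors, signalling genes, inhibitors and adaptors, and the 5 called lower are STAT3 targets.

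Markers of other testis cell types differed between the libraries beside these genes. Of 8 Sertoli cell markers, 5 were listed, 3 were called lower and 0 higher, with *Fshr*, *Gata1* and *Rhox5* at 0 in both. The listed ones summed to 311.5 TPM in GC-1spg against 65.2 TPM in GC-2spd (ts). Of these sums *Clu* made 177.8 and 55.4 TPM, and *Wt1* 122.2 and 0 TPM. *Sox9* went the other way, with 29 and 46 tags, and was not called. Of 10 fibroblast markers, 8 were listed, 2 were called lower and 3 higher, with *Lum* and *Thy1* at 0 in both. They summed to 3007 and 1633 TPM, of which *Col1a1* alone made 2063 and 513.03 TPM, and the median log2 ratio of the list was 0.29. The 5 peritubular myoid markers summed to 13.0 and 122.5 TPM, of which *Acta2*, the only one called, made 9.86 and 117.4 TPM. *Des* went the other way, with 11 and 4 tags, while *Cnn1* had 5 and 15, *Tagln* 0 and 3 and *Myh11* 0 and 2. The median log2 ratio of this list was 2.42 with 0.5 tags added, and -0.56 with the genes unlisted in 1 library at their limits. Of 6 Leydig cell markers, 2 were listed, at 0.789 and 1.06 TPM in sum, and 0 of 7 leukocyte markers had a tag. The part of these markers in the differences of the interleukin-6 family genes was not tested.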

How the data were processed

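For each of 2 libraries the authors deposited 21-base DGE tags with their copy number, a raw count, and with TPM, the count scaled to 1000000 clean tags. Adaptors, tags of low quality and tags seen once had been removed. The deposited TPM was used only to check the counts. Here tags were matched to all CATG+17 tags of the GENCODE M21 transcripts (GRCm38), sense and antisense, with at most 1 mismatch and exact matches first. Sense tags whose best matches belonged to 1 gene were summed per gene and scaled to all clean tags. The authors' UniGene reference was not used here. The libraries held 5072149 (GC-1spg) and 4726808 (GC-2spd (ts)) clean tags, and 14450 genes had a tag.

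Genes were compared by the two-sided Audic-Claverie test with Benjamini-Hochberg adjustment over all genes, with calls at FDR ≤ 0.001 and |log2 ratio| ≥ 1, where 0.01 TPM replaced a level of 0. The quasi-likelihood test of edgeR could not be fitted without replicates. Ratios carry exact conditional 95% intervals (Clopper-Pearson), and levels exact Poisson intervals. Tag shares were compared by Fisher's exact test. The tests were tested on simulated data. The 12 alternatives were other matching, other scaling, other tests and other low count rules. The genes and lists were chosen with earlier results of these data known, and the rule names all 10 genes, every called gene of each list, or else its 2 most abundant, and unlisted ligands and receptors. Some genes that the rule covers are not reported here. Python 3.11.15, numpy 2.4.6, pandas 2.3.3, scipy 1.17.1, matplotlib 3.10.9, R 4.3.3 and edgeR 4.0.16 were used.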

Additional observations from a re-analysis of the deposited data

Results flagged for a closer look

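Antisense tags were outside the counts used above, and those of the following genes exceeded a set floor of 3 copies. Since tags seen once were removed, that floor is not a limit of detection. In GC-1spg there were 56 antisense copies for *Stat3*, 40 for *Lifr*, 25 for *Il6st*, 21 for *Osmr*, 16 for *Lif*, 8 for *Ctf1*, 6 for *Socs3* and 4 for *Clcf1*. In GC-2spd (ts) there were 37 for *Il6st*, 23 for *Stat3*, 8 for *Osmr*, 8 for *Clcf1* and 5 for *Lifr*. *Lif* had more antisense than sense copies in GC-1spg, 16 against 6, and 0 of either in GC-2spd (ts).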

How the results depend on the processing

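Of 118 log2 ratios of the 10 genes over the alternatives, 0 turned direction and 106 kept the gene's call. The exact binomial test, both BCV values and the 10-tag minimum do not change the ratio, so no turn was possible there. *Il11*, not called, was at -1.07 under TMM and -1.22 with antisense tags. *Lif* was called lower with sense and antisense tags together (-8.76), a value set by the 0.01 TPM put in place of 0. The other 11 changes were calls lost under an assumed spread between cultures. With a BCV of 0.2 in edgeR's exact test, 3 of the 10 genes were called, 3 lower and 0 higher, 1000 of all genes (511 higher, 489 lower) and 5 pathway genes (1 higher). With a BCV of 0.4 these counts were 0 (0 lower, 0 higher), 244 (108 higher, 136 lower) and 1 (0 higher, 1 lower), the last being the STAT3 target *Saa3*. With 1 library per line the true value cannot be estimated. Scaling moved the split over all genes, from 1684 higher and 1133 lower to 1292 and 1443 under TMM and 1481 and 1278 under scaling to unambiguous sense tags. Counting only the CATG site nearest the 3′ end gave 1 STAT3 target called higher. *Lif* has no value there or with at least 10 tags. No paired analysis was possible because each line has 1 library.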
